A study of Mus musculus with 6 samples.

Results

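The genes examined were 48 mouse genes for noncollagenous extracellular matrix: matrix glycoproteins, proteoglycans, elastic fibre components and the enzymes that crosslink or process matrix. They were chosen by gene symbol from a fixed list and sorted into 8 classes by the role of their protein, and all 48 were found among the 27546 genes of the deposited table. The tissue was distal colon of 3 Gm31629-/- mice and 3 littermate WT mice on the C57BL/6 background, all 8 weeks old. Every mouse had taken 3% dextran sulfate sodium (DSS, a sulfated polysaccharide that damages the lining of the colon) in its drinking water for 7 days and was killed on day 8, so both groups carried the injury and no untreated mice entered the comparison. The Gm31629-/- mice lack a long noncoding RNA gene in every cell of the body, so a difference between the groups cannot be assigned to one cell type. One RNA-Seq library stood for each mouse. The values were FPKM, which are fragments scaled to the length of the gene and to the depth of the library. They do not correct for a different make-up of the RNA, so comparisons between mice also depend on how the libraries are scaled.

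The extracellular matrix of the colon lies in a sheet under the epithelium, between the cells of the lamina propria and submucosa, and around smooth muscle, vessels and nerves. Fibroblasts and smooth muscle cells secrete most of its structural proteins. Fibronectin, tenascins and thrombospondins link cells to fibres, small leucine-rich proteoglycans bind collagen fibrils, and elastin deposited on fibrillin microfibrils gives the wall its recoil. Nidogens, perlecan and agrin belong to basement membranes, which epithelial and endothelial cells help to build, while syndecans and glypicans sit on the cell surface, syndecan 1 being known above all from epithelium and plasma cells.

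The libraries held 18005700 to 18795100 mapped fragments, estimated from the size of the smallest FPKM steps. Log2 values of the tested genes correlated at 0.979 to 0.985 among WT libraries, 0.915 to 0.937 among Gm31629-/- libraries and 0.777 to 0.853 between the groups, over genes, which are not independent replicates. The library of Gm31629-/- mouse 1 stood apart by sex. It held Y-linked transcripts (Ddx3y at 9.27 FPKM) and almost no Xist (0.00606 FPKM), whereas Ddx3y was listed at 0 in the other 5 libraries and Xist lay between 8.35 and 13.8 FPKM there. The methods describe male mice. The main counts of calls and of groups that did not overlap are therefore also given without that library. The level of Gm31629 itself was not analysed here, so the genotype labels could not be checked against it.

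Nearly all of the matrix genes were higher in Gm31629-/- mice. The summed FPKM of the 48 genes was 1024, 1886 and 1147 in Gm31629-/- mice 1, 2 and 3 and 254, 310 and 291 in WT mice 1, 2 and 3. The lowest Gm31629-/- library thus lay above the highest WT library, and the ratio of the group means was 4.75. Of the 43 genes that averaged at least 0.5 FPKM over the 6 libraries, 38 were called higher and 0 were called lower in Gm31629-/- mice, where a call needs an adjusted p under 0.05 (limma, Benjamini-Hochberg over 14657 genes) and a log2 fold change past 1 in either direction. Over all tested genes the same rule called 18.4% higher, 4.64% lower and 23.1% either way. The groups did not overlap in 41 of the 43 genes, 40 of them above and 1 below WT, against 57.8% of all tested genes either way. The median log2 fold change was 3.10 over the tested matrix genes and 0.15 over all tested genes, and rescaling each library by its median ratio moved the latter to -0.06. A total of 17 of the 43 had a WT mean under 0.5 FPKM and entered the test only through their Gm31629-/- values, so a difference was built into their selection. Among the 26 genes with a WT mean of at least 0.5 FPKM, 21 were called higher. Without Gm31629-/- mouse 1, 39 genes were called higher and 0 lower, and the groups did not overlap in 42 of the 43.

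**Figure D1:**
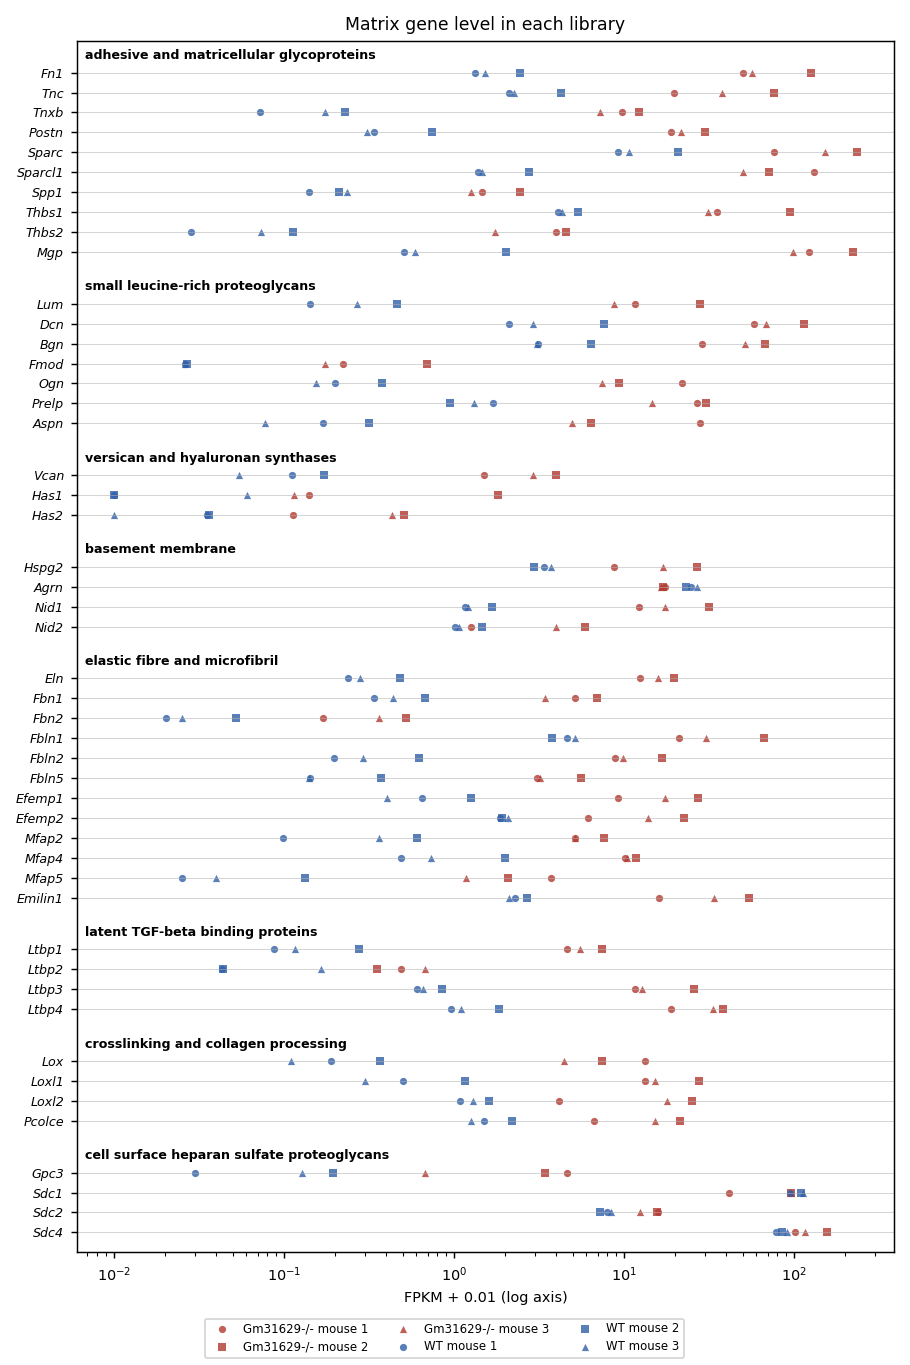
FPKM of the 48 matrix genes in each of the 6 libraries, on a log axis after adding 0.01, grouped by class, with Gm31629-/- mice in red, WT mice in blue and one symbol shape for each mouse number. All Gm31629-/- points lie to the right of all WT points for 45 genes and to the left for Agrn, and the groups overlap for Nid2 and Sdc1.

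Marker genes of connective tissue cells moved in the same direction. The summed FPKM of 12 fibroblast markers, none of them among the 48 genes, was 192, 639 and 447 in Gm31629-/- mice and 25.5, 43.3 and 29.6 in WT mice, a ratio of 13.0. All 12 were called higher, against 18.4% of all tested genes. Cd34, Pi16 and Twist1 among them had WT means under 0.5 FPKM and passed the filter only through their Gm31629-/- values. The summed FPKM of 12 smooth muscle markers was 2362, 1656 and 1446 against 24.4, 46.9 and 29.2. The sums of 10 endothelial markers ran from 70.7 to 104.6 against 3.32 to 7.91, those of 10 macrophage markers from 625 to 1438 against 99.8 to 110.2, and those of 12 markers of enteric neurons and glia from 57.1 to 204 against 2.83 to 5.42. Neutrophil (485 to 1024 against 69.8 to 127), adipocyte (158 to 535 against 76.6 to 124), mesothelial (5.28 to 48.7 against 2.51 to 3.00) and squamous epithelial sums (1.5 to 4.57 against 0.507 to 0.566) lay higher too, while skeletal muscle (9.41 to 106.6 against 8.92 to 14.0) and immediate early genes (339 to 747 against 283 to 427) overlapped between the groups. Of the adipocyte markers 6 were called higher and 1 lower, Pparg (means of 13.3 against 64.3 FPKM). Squamous markers were near the floor, with 2 tested and 0 called. The summed FPKM of 15 colon epithelium markers ran the other way, with 9366, 8994 and 11935 in Gm31629-/- mice and 17557, 19496 and 17847 in WT mice. Of these markers 0 were called higher and 6 lower, against 18.4% and 4.64% of all tested genes. In 9 of them the groups lay wholly below WT, as in 21.5% of all tested genes, and in 6 they overlapped. Epcam was level (means of 1109 against 1104 FPKM), and Slc26a3 had the higher mean in Gm31629-/- mice (99.5 against 35.1 FPKM). Without Gm31629-/- mouse 1 all 12 fibroblast markers were still called higher and 4 epithelial markers lower. Wt1, Bnc1, Gpm6a and Rspo1, 4 of 8 mesothelial markers, were at 0 in all WT libraries, and no mesothelial marker was at 0 in all Gm31629-/- libraries. The most abundant markers of these lists were Col6a1 (fibroblasts), Acta2 (smooth muscle), Pecam1 (endothelium), Lyz2 (macrophages) and Krt8 (epithelium), and Acta2 ranged from 453 to 641 FPKM in Gm31629-/- mice and from 5.01 to 14.2 FPKM in WT mice. The part of these cell types in the matrix result was not tested, and in bulk tissue more cells of a type and more RNA per cell cannot be told apart.

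**Figure D2:**
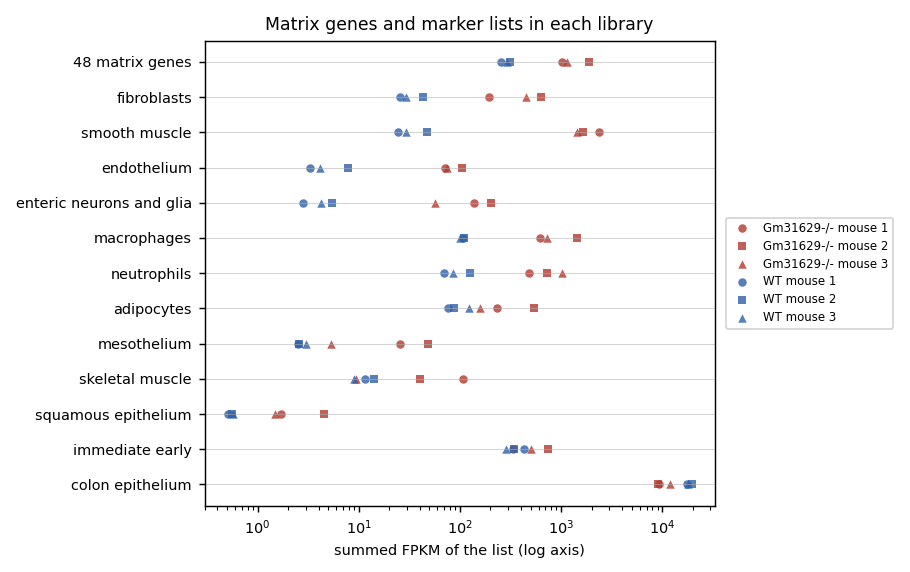
Summed FPKM of the 48 matrix genes and of 12 marker lists in each library, on a log axis, with Gm31629-/- mice in red and WT mice in blue. The fibroblast, smooth muscle, endothelial and macrophage sums of all Gm31629-/- mice lie above those of all WT mice, and the epithelial sums of all Gm31629-/- mice, up to 11935 FPKM, lie below the lowest WT sum of 17557 FPKM.

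Adhesive and matricellular glycoproteins carry signals between fibres and cells, and this class held the 3 largest differences of all. All 10 of its genes were called higher, against 18.4% of all tested genes, with a median log2 fold change of 3.37. Tnxb, Postn, Spp1 and Thbs2 had a WT mean under 0.5 FPKM and entered the test only through their Gm31629-/- values. Mgp (ENSMUSG00000030218, chromosome 6, 136872435 to 136875823 of GRCm38), matrix Gla protein, an inhibitor of calcification, had 123, 221 and 98.2 FPKM in Gm31629-/- mice and 0.501, 2.01 and 0.583 FPKM in WT mice. The lowest Gm31629-/- value was far above the highest WT value. Its log2 fold change was 6.18 ± 0.37 (SE, limma adjusted p = 0.00016), and the ratio of mean FPKM was 143 on 11, 43 and 13 WT fragments. Sparcl1 (ENSMUSG00000029309, chromosome 5), a relative of SPARC that modulates adhesion, had 131, 71.2 and 50.4 FPKM against 1.38, 2.76 and 1.45 FPKM. Here mouse 1 was the highest of the Gm31629-/- mice, and the log2 fold change was 4.81 ± 0.36 (SE, limma adjusted p = 0.000264). Fn1 (ENSMUSG00000026193, chromosome 1, 71585520 to 71653200), fibronectin, had 50.1, 126 and 56.4 FPKM against 1.32, 2.45 and 1.51 FPKM. Mouse 2 was the highest in both groups, and Fn1 rose by 4.73 ± 0.36 on the log2 scale (SE, limma adjusted p = 0.000281).

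The other 7 genes of the class had log2 fold changes between 1.17 and 4.06. The upper end was Postn, periostin, a collagen-binding protein of fibroblasts, with means of 23.5 ± 5.90 and 0.454 ± 0.243 FPKM (SD, n = 3 each). Sparc, a collagen-binding glycoprotein, had the highest mean FPKM of the matrix genes in Gm31629-/- mice, with 76.7, 236 and 152 FPKM, although Sparcl1, Mgp and Sdc4 exceeded it in mouse 1. It had 9.28, 20.7 and 10.7 FPKM in WT mice. Tnc and Tnxb, tenascins C and X, rose by 3.39 and 3.20, and Thbs1, a thrombospondin that can activate TGF-beta, by 3.12 (log2 fold changes). The lower end was Spp1, osteopontin, with 1.45, 2.43 and 1.26 FPKM against 0.131, 0.202 and 0.226 FPKM. Its log2 fold change of 1.17 (limma adjusted p = 0.00368) became 0.99 without Gm31629-/- mouse 2, just under the limit for a call.

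Small leucine-rich proteoglycans coat collagen fibrils and set their diameter and spacing. The 6 tested genes of this class were all called higher, against 18.4% of all tested genes, with log2 fold changes from 3.21 to 4.05 and a median of 3.37. For Lum, Ogn and Aspn a difference was built into the selection, as their WT means were under 0.5 FPKM. Dcn (ENSMUSG00000019929, chromosome 10, 97479609 to 97518143), decorin, had 58.4, 114 and 68.5 FPKM in Gm31629-/- mice and 2.11, 7.59 and 2.92 FPKM in WT mice, a log2 fold change of 4.05 ± 0.41 (SE, limma adjusted p = 0.000622). Lum (ENSMUSG00000036446, chromosome 10, 97565128 to 97572703), lumican, had 11.7, 28.1 and 8.69 FPKM against 0.132, 0.454 and 0.261 FPKM, and its log2 fold change was 3.58 ± 0.39 (SE, limma adjusted p = 0.000782). The groups did not overlap in either gene, as in 57.8% of all tested genes, and mouse 2 was the highest of each group in both. Lum starts 46985 bases past the end of Dcn on the same strand. Prelp (ENSMUSG00000041577), which anchors basement membranes to connective tissue, had 26.8, 30.2 and 14.6 FPKM against 1.69, 0.937 and 1.31 FPKM and rose by 3.38 ± 0.28 (log2 fold change ± SE, limma adjusted p = 0.000356). Fmod (fibromodulin), a relative on the same chromosome, was under the filter, with 13, 42 and 10 fragments in Gm31629-/- mice and 1 fragment in each WT mouse. The fragments of the lowest Gm31629-/- library still outnumbered those of each WT library.

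Ogn and Aspn, osteoglycin and asporin, lie in a row of small leucine-rich proteoglycan genes on chromosome 13, and both were highest in Gm31629-/- mouse 1. Ogn had 21.8, 9.36 and 7.4 FPKM against 0.190, 0.368 and 0.145 FPKM, and Aspn 27.9, 6.40 and 4.97 FPKM against 0.161, 0.307 and 0.0678 FPKM. Their log2 fold changes were 3.35 ± 0.36 and 3.21 ± 0.55 (SE, limma adjusted p = 0.00076 and 0.00417). The coefficient of variation among Gm31629-/- mice was 60.8% for Ogn and 98.1% for Aspn. Bgn, biglycan, on chromosome X, was more even (28.6, 68.0 and 51.6 FPKM against 3.09, 6.41 and 3.07 FPKM) and rose by 3.26 on the log2 scale.

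The 250 bases before the annotated start of Aspn and of Ogn (RefSeq, GRCm38.p6) are shown because these neighbours shared their order among the mice. Capitals mark TATAAA or GGGCGG on either strand. The Aspn window is chr13:49544193-49544442 and the Ogn window is chr13:49607765-49608014, both on the plus strand, and their GC content was 30% and 42%.
Aspn: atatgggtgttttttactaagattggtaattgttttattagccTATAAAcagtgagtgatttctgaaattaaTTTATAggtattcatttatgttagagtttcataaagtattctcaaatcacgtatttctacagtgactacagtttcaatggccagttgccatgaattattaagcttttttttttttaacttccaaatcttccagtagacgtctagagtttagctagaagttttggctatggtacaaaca
Ogn: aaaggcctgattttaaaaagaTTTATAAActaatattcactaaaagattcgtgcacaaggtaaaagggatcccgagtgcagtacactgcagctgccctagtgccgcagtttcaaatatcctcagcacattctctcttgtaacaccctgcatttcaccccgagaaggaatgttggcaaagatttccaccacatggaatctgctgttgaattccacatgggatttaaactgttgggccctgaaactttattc
Both windows held TATAAA and neither held GGGCGG. Promoter windows of 250 bases before to 50 bases after a start were matched for 32 of the 48 genes, giving 44 windows beside 32817 windows of all genes, searched on both strands. TATAAA was present in 7 of the 44 windows and in 13.6% of all windows, and GGGCGG, the core of the GC box, in 25 of 44 and in 35.6%. CCAAT was present in 16 windows (37.4% of all), CAGACA, a SMAD-binding motif, in 14 (21%), TGANTCA, the AP-1 motif, in 3 (7.81%), CACGTG, the E-box, in 2 (7.15%) and the CArG box in 0 (1.63%). The median GC content was 59.8% in the 44 windows and 52.7% in all windows. A match is a run of letters and does not show a bound site.

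Versican and the hyaluronan synthases make the loose, hydrated part of the matrix. Vcan (ENSMUSG00000021614, chromosome 13), versican, had 1.49, 3.97 and 2.90 FPKM in Gm31629-/- mice and 0.101, 0.161 and 0.0441 FPKM in WT mice. Its log2 fold change was 1.73 ± 0.26 (SE, limma adjusted p = 0.0025). The WT mean of Vcan was under the filter, so a difference was built into its selection. The synthases Has1 and Has2 were under the filter. Has1 had 11, 151 and 9 fragments in Gm31629-/- mice and 0, 0 and 4 in WT mice, so that 1 library held most of its signal, and Has2 had 8, 39 and 33 against 2, 2 and 0. An absence of fragments in a library allows up to 3, for counting error alone. All Gm31629-/- values lay above all WT values in the 3 genes, as in 36.3% of all tested genes. For Has1 this rested on 9 against 4 fragments. Both synthases had few WT fragments and were not tested, so no fold change is given for them.

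Basement membrane genes did not move together. Nid1 (ENSMUSG00000005397), nidogen 1, which joins laminin to collagen IV, had 12.3, 31.6 and 17.3 FPKM in Gm31629-/- mice and 1.15, 1.66 and 1.20 FPKM in WT mice. Hspg2 (ENSMUSG00000028763), the large heparan sulfate proteoglycan perlecan, had 8.71, 27.0 and 17.0 FPKM against 3.39, 2.93 and 3.70 FPKM. Both were called higher, against 18.4% of all tested genes. Their log2 fold changes were 3.10 ± 0.32 and 1.97 ± 0.36 (SE, limma adjusted p = 0.000641 and 0.00515). Nid2, nidogen 2, had 1.25, 5.89 and 3.97 FPKM against 1.00, 1.46 and 1.06 FPKM. Gm31629-/- mouse 1 lay inside the WT range, and the log2 fold change of 0.97 was not called (95% interval 0.06 to 1.89, limma adjusted p = 0.0799). Without that library it was 1.43 (limma adjusted p = 0.00336).

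Agrn (ENSMUSG00000041936, chromosome 4, 156165290 to 156197488), agrin, was the one matrix gene whose values lay lower in every Gm31629-/- mouse than in every WT mouse. It had 17.5, 16.9 and 16.5 FPKM against 24.9, 23.0 and 27.0 FPKM. These 3 Gm31629-/- values had the smallest spread of all 48 genes, with a coefficient of variation of 3.04%. The log2 fold change was -0.53 ± 0.13 (SE, 95% interval -0.84 to -0.23, limma adjusted p = 0.0156), which passed the p threshold but was short of the fold needed for a call. Groups that lay wholly below were found for 21.5% of all tested genes. Without WT mouse 1 or WT mouse 3 its adjusted p was 0.0543 or 0.0727 (limma).

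Elastic fibres consist of an elastin core and a mantle of fibrillin microfibrils, with fibulins, EFEMP proteins, MFAPs and emilin at the interface. All 11 tested genes of this class were called higher, against 18.4% of all tested genes, with log2 fold changes from 1.58 to 3.66 and a median of 2.57. Eln, Fbn1, Fbln2, Fbln5, Mfap2 and Mfap5 had WT means under 0.5 FPKM and entered the test only through their Gm31629-/- values. Eln (ENSMUSG00000029675, chromosome 5, 134702593 to 134747323), elastin, had 12.5, 19.6 and 15.8 FPKM in Gm31629-/- mice and 0.227, 0.473 and 0.269 FPKM in WT mice, a log2 fold change of 3.66 ± 0.20 (SE, limma adjusted p = 0.000113). Efemp1 (ENSMUSG00000020467), fibulin 3, had 9.18, 27.3 and 17.3 FPKM against 0.637, 1.25 and 0.392 FPKM. Emilin1 (ENSMUSG00000029163), an elastic fibre glycoprotein, had 16.2, 54.1 and 33.8 FPKM against 2.29, 2.68 and 2.11 FPKM. Groups were apart in all 3 genes, as in 57.8% of all tested genes. The log2 fold changes of the latter pair were 3.34 ± 0.38 and 3.26 ± 0.39 (SE, limma adjusted p = 0.000902 and 0.0011). Among Gm31629-/- mice Eln was the most even of the 3, with a coefficient of variation of 22.5%, whereas among WT mice Emilin1 was, at 12.3%.

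The fibrillin 1 gene Fbn1, which makes the main microfibril protein of the adult, rose by 2.03 on the log2 scale, with 5.15 ± 1.73 FPKM against 0.476 ± 0.174 FPKM (SD, n = 3 each). Fbn2, a fibrillin known mainly from development, was under the filter, with 39, 125 and 86 fragments against 3, 10 and 4. The fibulin genes Fbln1, Fbln2 and Fbln5 rose by 2.72, 3.20 and 2.01, and the microfibril-associated genes Mfap2, Mfap4 and Mfap5 by 2.37, 2.57 and 1.58 (log2 fold changes). Mfap4 was almost level among Gm31629-/- mice (10.1, 11.7 and 10.4 FPKM) against 0.478, 1.99 and 0.720 FPKM in WT mice. Mfap5 was highest in Gm31629-/- mouse 1, with 3.74, 2.08 and 1.17 FPKM.

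**Figure D3:**
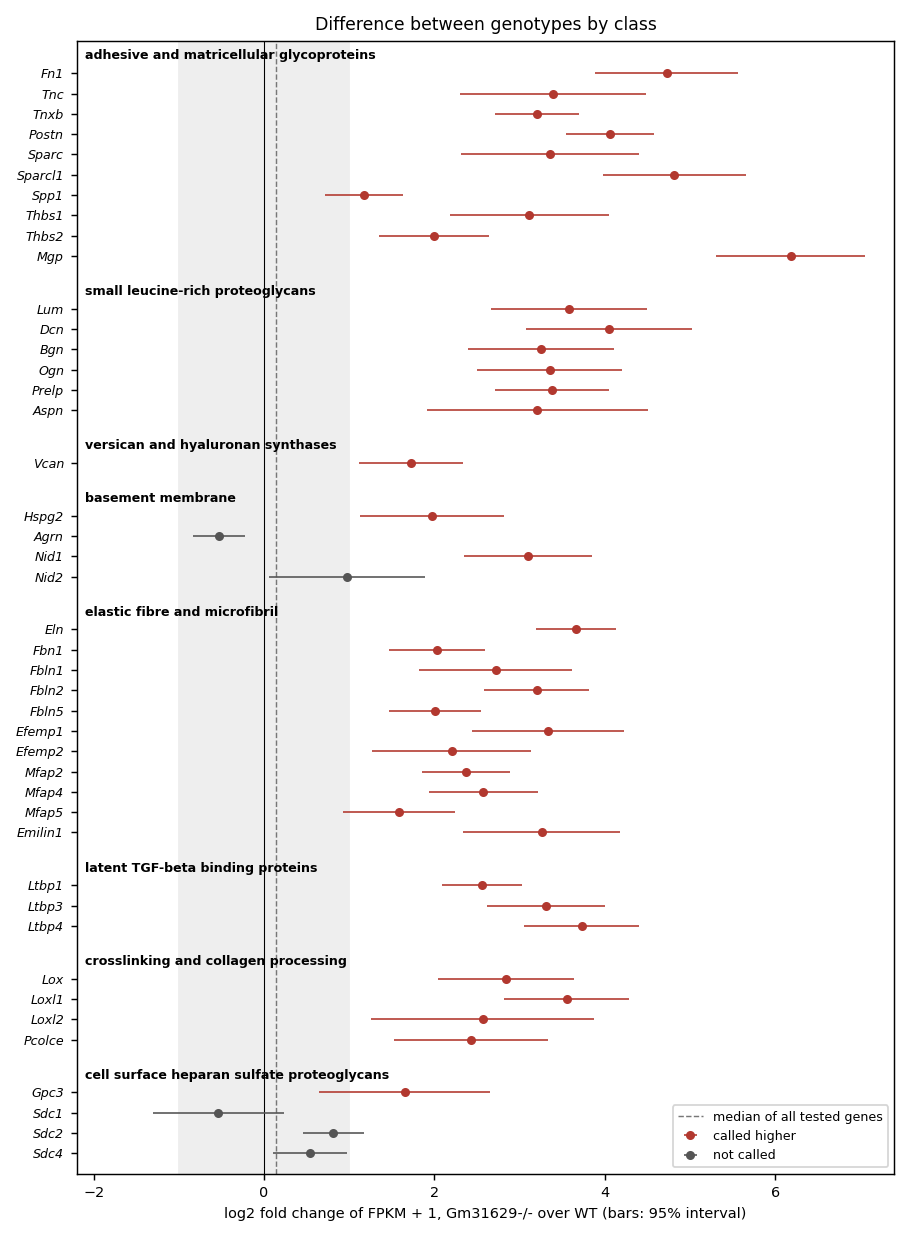
Log2 fold change of FPKM + 1 in Gm31629-/- over WT mice for the 43 tested matrix genes, with 95% intervals, red where called higher and grey where not called. The shaded band runs from -1 to 1, the dashed line marks the median of all tested genes at 0.15, and the 5 grey points are Agrn, Nid2, Sdc1, Sdc2 and Sdc4.

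Latent TGF-beta binding proteins hold the inactive cytokine in the matrix and attach to fibrillin microfibrils. Ltbp4 (ENSMUSG00000040488) had 18.9, 38.0 and 33.5 FPKM in Gm31629-/- mice and 0.954, 1.82 and 1.09 FPKM in WT mice. Ltbp3 had 11.6, 25.9 and 12.8 FPKM against 0.594, 0.845 and 0.646 FPKM, and Ltbp1 had 4.59, 7.44 and 5.53 FPKM against 0.0774, 0.265 and 0.107 FPKM. All 3 were called higher, against 18.4% of all tested genes. Their log2 fold changes were 3.73 ± 0.28, 3.31 ± 0.29 and 2.56 ± 0.20 (SE, limma adjusted p = 0.000281, 0.00042 and 0.000287). Ltbp1 passed the filter only through its Gm31629-/- values. Ltbp2, the family member that binds no latent TGF-beta, was under the filter with 72, 52 and 100 fragments against 5, 5 and 24. It was the one matrix gene that peaked in Gm31629-/- mouse 3.

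The 4 genes for crosslinking and processing were all called higher, against 18.4% of all tested genes, with a median log2 fold change of 2.71. Lox among them passed the filter only through its Gm31629-/- values. Lysyl oxidases crosslink elastin and collagen, and procollagen C-endopeptidase enhancer (Pcolce) speeds the trimming of procollagen. Loxl1 (ENSMUSG00000032334), the oxidase linked to elastic fibres, had 13.3, 27.6 and 15.2 FPKM in Gm31629-/- mice and 0.492, 1.15 and 0.290 FPKM in WT mice, a log2 fold change of 3.55 ± 0.31 (SE, limma adjusted p = 0.000403). Lox had 13.3, 7.44 and 4.4 FPKM against 0.180, 0.358 and 0.0996 FPKM and was highest in mouse 1. Loxl2 had 4.14, 25.2 and 18.0 FPKM against 1.07, 1.6 and 1.28 FPKM and was lowest in that mouse. Pcolce had 6.65, 21.5 and 15.1 FPKM against 1.48, 2.19 and 1.25 FPKM. These 3 were called higher by 2.84 ± 0.34, 2.57 ± 0.56 and 2.43 ± 0.38 on the log2 scale (SE, limma adjusted p = 0.0011, 0.00998 and 0.00306).

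Among the cell surface heparan sulfate proteoglycans, the syndecan genes Sdc1, Sdc2 and Sdc4 were not called. Of the 4 genes of the class 1, Gpc3, was called higher, beside 18.4% of all tested genes. The class median of 0.68 was the smallest of the 8. This did not extend to related cell surface and cell proteoglycans. Of these, 6 of 7 tested were called higher, with a median log2 fold change of 2.32. Sdc1 (ENSMUSG00000020592, chromosome 12, 8771323 to 8793715), syndecan 1, had 41.3, 96.6 and 95.5 FPKM in Gm31629-/- mice and 94.9, 110.2 and 113 FPKM in WT mice. Mouse 1 was low, the other two reached the WT range, and the difference was not called (log2 fold change -0.53, 95% interval -1.30 to 0.23, limma adjusted p = 0.219). Without mouse 1 the log2 fold change was -0.14. With each library rescaled by its median ratio it was -0.79 (limma adjusted p = 0.0989), and all Gm31629-/- values then lay below all WT values. Sdc4 (ENSMUSG00000017009, chromosome 2, 164424247 to 164443887), syndecan 4, which cooperates with integrins in focal adhesions, had 102, 157 and 117 FPKM against 78.4, 85.2 and 90.5 FPKM. All Gm31629-/- values were above all WT values, as for 36.3% of tested genes, with a log2 fold change of 0.54 (95% interval 0.10 to 0.97, limma adjusted p = 0.0518). After rescaling by the median ratio the groups of Sdc4 overlapped. Sdc2, syndecan 2, had 15.9, 15.6 and 12.4 FPKM against 7.89, 7.26 and 8.39 FPKM. Its log2 fold change of 0.81 passed the p threshold (limma adjusted p = 0.00593) but not the fold limit. Gpc3, glypican 3, on chromosome X, had 4.65, 3.44 and 0.668 FPKM against 0.0201, 0.186 and 0.119 FPKM. It was called higher by 1.65 ± 0.43 (log2 fold change ± SE, limma adjusted p = 0.019), but not without Gm31629-/- mouse 2, WT mouse 1 or WT mouse 3 (limma adjusted p = 0.0522, 0.0624 and 0.0643). Gpc3 too passed the filter only through its Gm31629-/- values.

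The windows of Sdc1 and Sdc4 are shown because these were the 2 most abundant matrix transcripts of WT mice and neither was called. They cover the 250 bases before the start, chr12:8771146-8771395 on the plus strand and chr2:164443189-164443438 on the minus strand (RefSeq, GRCm38.p6), with the same capitals as above.
Sdc1: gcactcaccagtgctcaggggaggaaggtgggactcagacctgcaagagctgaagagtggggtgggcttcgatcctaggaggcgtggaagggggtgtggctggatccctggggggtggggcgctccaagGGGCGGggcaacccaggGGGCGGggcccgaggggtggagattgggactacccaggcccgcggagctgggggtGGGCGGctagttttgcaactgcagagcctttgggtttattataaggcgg
Sdc4: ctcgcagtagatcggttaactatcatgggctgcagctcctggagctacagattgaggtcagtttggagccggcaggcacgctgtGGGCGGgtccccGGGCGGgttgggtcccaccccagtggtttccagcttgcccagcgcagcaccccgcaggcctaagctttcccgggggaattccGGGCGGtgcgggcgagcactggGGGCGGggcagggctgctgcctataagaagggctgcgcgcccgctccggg
Both held GGGCGG several times and neither held the exact letters TATAAA, the reverse of Aspn and Ogn. This contrast did not follow the calls. The windows with 50 more bases after the start held GGGCGG 5, 3 and 4 times and no TATAAA for Hspg2, Bgn and Gpc3, all called higher. GGGCGG was present for 19 of the 32 genes with a window and TATAAA for 6. Each of them holds tataag near the end of the window, which the search did not count. Their GC content was 66% and 68%.

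The make-up of the matrix transcripts differed between the groups. In WT mice cell surface proteoglycans made up 71.3%, 65.5% and 72.7% of the summed FPKM of the 48 genes, with Sdc1 alone at 37.2% ± 1.57 and Sdc4 at 29.8% ± 2.01 (SD, n = 3). In Gm31629-/- mice the class made up 16%, 14.4% and 19.7%, although its own summed FPKM overlapped between the groups (164, 272 and 225 against 181, 203 and 212, a ratio of means of 1.11). Adhesive and matricellular glycoproteins held 45.8%, 46.4% and 39.9% in Gm31629-/- mice and 7.56%, 12.5% and 7.43% in WT mice, which made them the largest class in the former. Sparc, Mgp and Sdc4 had the 3 highest mean shares in Gm31629-/- mice, at 11.1% ± 3.12, 10.8% ± 1.91 and 9.49% ± 1.03 of the sum (SD, n = 3). This order did not hold in mouse 1, where Sparcl1 came first at 12.7% and Sparc, at 7.49%, came after Mgp and Sdc4. Sdc4 was among the top 3 in all 6 libraries. Small leucine-rich proteoglycans held 14.8% ± 2.03 against 3.59% ± 1.39, and elastic fibre genes 11.8% ± 1.63 against 4.35% ± 0.287. Basement membrane genes went the other way in share, 4.33% ± 0.448 against 10.9% ± 1.34, although their summed FPKM was higher in each Gm31629-/- mouse (39.8 to 81.3 against 29.1 to 33.0), and Agrn made up 8.84% ± 1.24 of the WT sum. The groups did not overlap in the share of any of the 8 classes. Each of the 8 two-sided exact permutation tests gave p = 0.1, the smallest that 3 against 3 libraries allow, and adjustment over the 8 leaves it there.

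**Figure D4:**
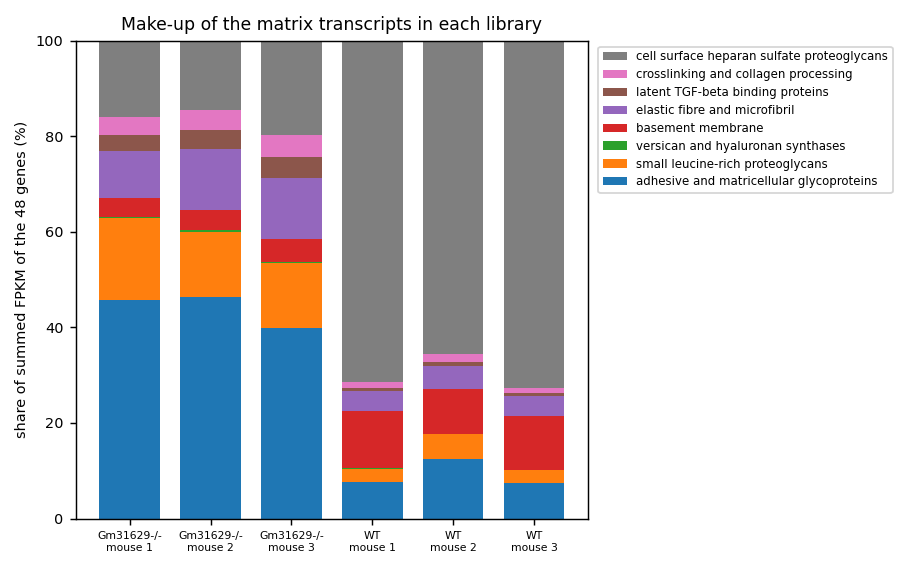
Share of the summed FPKM of the 48 matrix genes held by each class in each library, as stacked bars that add to 100%. Cell surface proteoglycans fill 65.5% to 72.7% of the WT bars and 14.4% to 19.7% of the Gm31629-/- bars, and adhesive glycoproteins are the largest class in the latter.

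Within the Gm31629-/- group the mice ranked in a repeated order. Mouse 2 had the highest value for 39 of the 48 genes, mouse 1 for 8 (Sparcl1, Ogn, Aspn, Agrn, Mfap5, Lox, Gpc3 and Sdc2) and mouse 3 for 1. Fibroblast markers peaked in mouse 2 as well (11 of 12), whereas smooth muscle markers peaked in mouse 1 (11 of 12). Among WT mice, mouse 2 was the highest for 37 genes. The coefficient of variation within the Gm31629-/- group ran from 3.04% for Agrn to 143.5% for Has1, with a median of 48.1%.

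Fibroblast markers themselves differed 13.0-fold between the groups, so the level of each matrix gene was also expressed per 100 FPKM of the 12 summed fibroblast markers, collagen genes among them, in the same library. By this measure 18 of the 43 tested genes lay wholly above WT, 8 lay wholly below and 17 overlapped, while 3.98% of all tested genes lay above and 80.3% below. Among those above, Tnxb, Postn, Thbs2, Lum, Ogn, Aspn, Vcan, Eln, Fbln2, Ltbp1 and Lox had WT means under 0.5 FPKM. These genes passed the filter only through their Gm31629-/- values, so a higher level was partly built into their selection. Without Gm31629-/- mouse 1 the counts were 18 above, 10 below and 15 overlapping. Mgp had 63.9, 34.6 and 22 in Gm31629-/- mice and 1.97, 4.65 and 1.97 in WT mice, a ratio of means of 14.0. Aspn (14.5, 1.00 and 1.11 against 0.631, 0.709 and 0.229) and Ogn (11.3, 1.46 and 1.66 against 0.745, 0.85 and 0.490) lay above WT in each mouse, but mouse 1 made most of the difference. Fn1 (26.0, 19.8 and 12.6 against 5.18, 5.66 and 5.10) and Eln (6.48, 3.07 and 3.54 against 0.891, 1.09 and 0.910) were above WT with less dependence on one mouse. Sparc, at 36.9 ± 2.97 against 40.2 ± 6.59, and Bgn, at 12.4 ± 2.24 against 12.4 ± 2.24 (SD, n = 3), overlapped WT. Sdc1 stood at 19.3 ± 3.65 against 336 ± 70.5 in WT mice, Sdc4 at 34.6 ± 16.1 against 270.2 ± 63.5 and Agrn at 5.15 ± 3.47 against 80.7 ± 24.0, and the groups overlapped in none of the 3. No test was attached to these values, because every gene in a library is divided by the same sum.

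On the log2 scale, with the mean log2(FPKM + 1) of the fibroblast markers subtracted in each library, 17 genes lay above, 10 below and 16 overlapped. Over all tested genes 1.16% lay above and 90.7% below by that measure. Without Gm31629-/- mouse 1 the counts were 18 above and 19 below. Of the 17 genes above with all libraries, Postn, Lum, Eln and Fbln2 had passed the filter only through their Gm31629-/- values. Both measures placed 11 genes above and 7 below, and 0.785% and 79.7% of all tested genes. Vcan was placed on opposite sides, wholly above WT per 100 fibroblast FPKM (0.776, 0.621 and 0.649 against 0.396, 0.373 and 0.149) and wholly below on the log2 scale. Mgp was the most raised (3.45 between group means), followed by Sparcl1 (2.09), Fn1 (2.0), Postn (1.34), Dcn (1.32) and Ltbp4 (1.00). Sdc1 and Agrn had the most negative difference (-3.26 each), then Sdc4 (-2.19), Sdc2 (-1.91) and Nid2 (-1.75). The direction for Vcan and Fbln5, which lay below WT here (-1.0 and -0.72), thus depended on the measure, since their ratios of means per 100 fibroblast FPKM were 2.23 and 1.78. Thbs2, Fbn1, Mfap2, Mfap4, Mfap5, Ltbp1 and Gpc3 also had a negative difference here but a higher Gm31629-/- mean per 100 fibroblast FPKM. Sparc, Thbs1 and Bgn had the reverse. Vcan and Fbln5 changed sign with a pseudocount of 0.1 (0.27 and 0.24), as did Sparc (from 0.63 to -0.06).

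**Figure D5:**
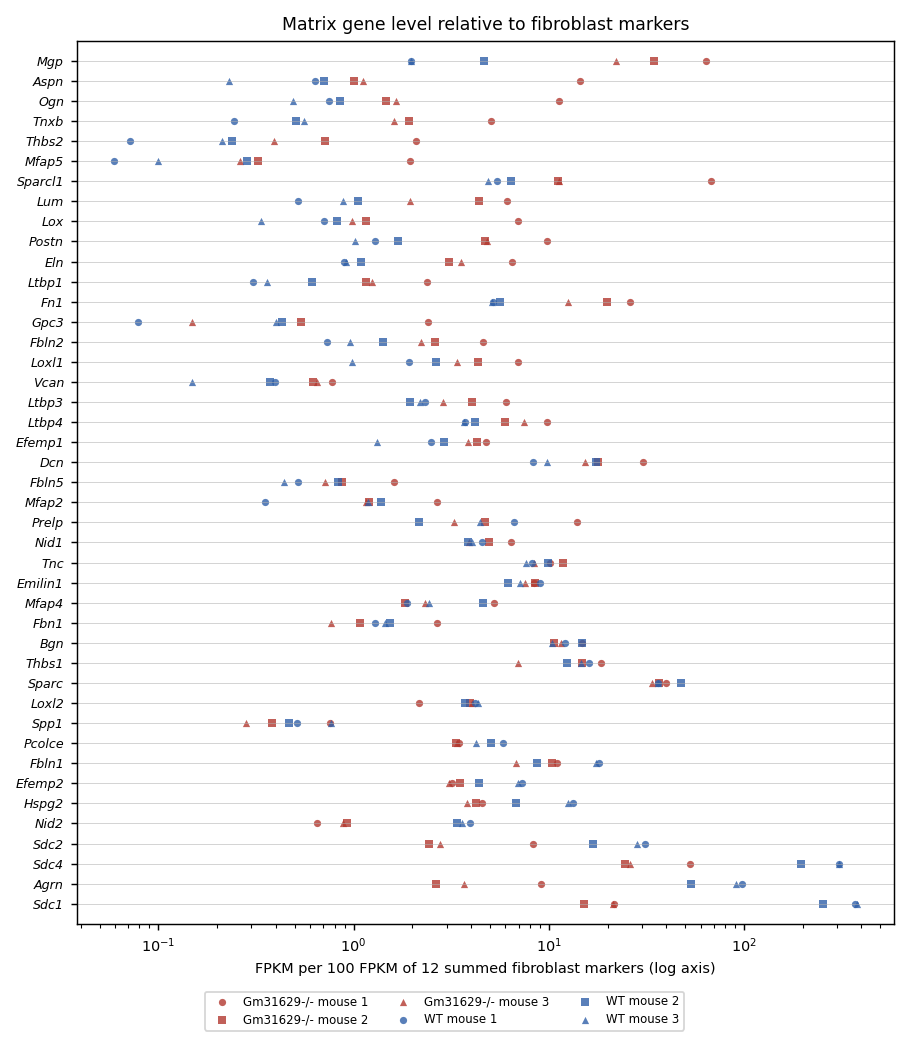
Level of the 43 tested matrix genes per 100 FPKM of 12 summed fibroblast markers in each library, on a log axis, ordered by the ratio of group means. Mgp, Aspn and Ogn stand at the top with ratios of 14.0, 10.6 and 6.94, the groups overlap in the middle of the order, and the 5 genes at the bottom are Nid2, Sdc2, Sdc4, Agrn and Sdc1.

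The rest of the noncollagenous matrix was taken from a list of relatives of the 48 genes, of which 96 were in the table and 62 were tested. Of these, 41 were called higher and 2 lower, against 18.4% and 4.64% of all genes, with a median log2 fold change of 1.55. A total of 25 of the 62 had a WT mean under 0.5 FPKM and passed the filter only through their Gm31629-/- values, 23 of them called higher, so that a difference was again built in. Among the 37 with a WT mean of at least 0.5 FPKM, 18 were called higher and 2 lower. Without Gm31629-/- mouse 1, 45 relatives were called higher and 2 lower. The 5 highest were Dpt (dermatopontin, a decorin-binding protein), Igfbp7, Tgfbr3 (betaglycan, a membrane proteoglycan), Fstl1 and Ecm1, with log2 fold changes of 4.15, 3.81, 3.65, 3.60 and 3.33. Dpt had 39.8, 90.3 and 67.5 FPKM in Gm31629-/- mice and 1.13, 4.19 and 3.12 FPKM in WT mice. The 2 lower genes were Tsku (tsukushi, a small leucine-rich protein) and Ccn3 (a matricellular protein of the CCN family). Tsku had 3.08, 3.61 and 7.05 FPKM against 20.2, 41.4 and 42.2 FPKM, a log2 fold change of -2.67 ± 0.36 (SE, limma adjusted p = 0.00169). Ccn3 had 11.8, 6.67 and 4.93 FPKM against 37.0, 20.2 and 13.9 FPKM, and its log2 fold change of -1.45 (limma adjusted p = 0.024) lost the call without any one of 4 libraries, Gm31629-/- mouse 2 or 3 and WT mouse 1 or 2. Among the other cell surface and cell proteoglycans 6 of 7 were called higher, Srgn (serglycin, of blood cell granules) and Sdc3 among them at 3.31 and 2.82, and Gpc4 was not called at 0.13 (log2 fold changes).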

How the data were processed

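Total RNA of distal colon tissue from 3 Gm31629-/- and 3 WT mice was sequenced after a library kit that does not mark strand, so reads from a gene and an antisense partner cannot be told apart. The deposited values are FPKM, which the authors computed for 27546 genes and laid out in a column for each mouse. The submitters' notes name HISAT2 2.1.0, HTSeq 0.6.0 and GRCm38, without saying how they were set. The methods speak of pooled RNA from 3 mice per group, whereas the table holds a column per mouse. Columns were taken here as separate mice, and if they were not, the p-values measure technical spread alone. The study's own comparison used DEGseq on counts and was not repeated.

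Symbols, positions and exon lengths came from GENCODE M21 and matched 27488 identifiers. Dividing each low FPKM by the value of 1 fragment gave the depth, with 96.3% to 97.2% of values up to 20 fragments within 0.1 of a whole number. This depth is an estimate, and the fragments summed over genes came to 1.05 to 1.06 times as many. Genes were compared by a two-sided moderated test (limma 3.58.1 under R 4.3.3, with lmFit and trended eBayes) on log2(FPKM + 1), over the 14657 genes that averaged at least 0.5 FPKM, with Benjamini-Hochberg adjustment. On this scale the change of low genes is understated. Scripts were tested on simulated data. The comparison relative to fibroblast markers had been planned as a limma fit, but the shared marker index dominated the error of every gene (SE of 0.480 to 0.509 over the matrix genes), so only values and group overlap are given.

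The 48 genes, their classes, the relatives and the 12 marker lists were chosen with earlier results of these data known. Values in every mouse are given for the 3 genes per class with the largest absolute log2 fold change (all genes in classes of up to 4), for genes with a negative log2 fold change and for genes under the filter. Of the relatives, the 5 highest and up to 5 lowest called genes are named. The other genes with values in the text were chosen after these were seen. Promoters came from RefSeq (GRCm38.p6). The filter (none, or an average of 5 FPKM), the pseudocount (0.1), the scaling of libraries (2 ways), the trend, a replicate block, the mice (each left out) and the call rule (limma treat and others) were varied. The limma voom fit on recovered fragments and the values per 100 FPKM of fibroblast markers were added after seeing the data. Figures were drawn with matplotlib 3.10.9.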

Additional observations from a re-analysis of the deposited data

How the results depend on the processing

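The number of matrix genes called higher stayed between 27 (mean FPKM of at least 5) and 39 under the alternatives run, with 29 under limma treat, and no matrix gene was called lower except Agrn, the 1 gene so called with no fold limit. Limma treat ended the calls of Spp1, Thbs2, Vcan, Hspg2, Efemp2, Mfap5, Loxl2, Pcolce and Gpc3. The replicate numbers do not pair the mice (correlations of 0.036, -0.11 and 0.014 between same-numbered mice), and with the replicate block 38 matrix genes were called higher and 0 lower, 43 and 2 relatives, and the median stayed at 3.10. Rescaling by the median ratio moved the share of higher genes among all called genes from 79.9% to 64.7% and kept 38 matrix genes higher.

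Relatives called higher numbered 16 with a mean FPKM of at least 5 and 18 under limma treat. Relatives called lower numbered 1 with no filter and 1 under limma treat, and 1 to 2 without one mouse. With a pseudocount of 0.1 the median log2 fold change was 3.78 over the matrix genes, 4.84 for adhesive glycoproteins, 4.77 for small leucine-rich proteoglycans, 3.78 for versican, 3.74 for elastic fibres, 4.43 for latent TGF-beta binding proteins and 3.93 for crosslinking genes. In the same order voom gave 4.34, 5.42, 5.04, 4.82, 4.32, 4.54 and 4.12, and 1.83 for basement membrane. No filter gave 2.65 over the matrix genes and 0.58 for versican and the hyaluronan synthases, since 5 low genes enter. A mean FPKM of at least 5 gave 4.06 for adhesive glycoproteins, 1.97 for basement membrane and 3.20 for elastic fibres. Median-ratio scaling gave 0.43 for cell surface proteoglycans. Without one mouse the basement membrane median ran from 1.12 (without Gm31629-/- mouse 2) to 1.90 (without Gm31629-/- mouse 1). Without the most abundant gene, the share of basement membrane differed by -10.8 and that of cell surface proteoglycans by -49.1 percentage points.

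Relative to fibroblast markers, the median was -0.080 with no filter against 0.38, 6 genes lay below with a mean FPKM of at least 5, and 10 to 19 lay below without one mouse, the upper end without Gm31629-/- mouse 1. A pseudocount of 0.1 gave -0.056 for Sparc, 0.27 for Vcan and 0.24 for Fbln5. Of these changes, those through fewer or more genes tested have a known cause, and a smaller pseudocount raises the log2 change of low genes by arithmetic. For the others the cause was not tested. Depth limits Fmod, Has1, Has2, Fbn2 and Ltbp2, with at most 24 fragments in any WT library. Several called genes also rested on as few WT fragments. Among them were Spp1 (4, 6 and 7 in WT mice 1, 2 and 3), Thbs2 (2, 13 and 8), Mfap5 (1, 8 and 2), Gpc3 (1, 9 and 6) and Aspn (7, 13 and 3). Lum, Ogn and Mfap2 were likewise low, so the size of their fold changes is uncertain.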
